A study of Rattus norvegicus with 36 samples.

Results

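Leg muscle of the rat was compared between postnatal day 21 and day 14, the end and the start of the third week after birth. The comparison used 6 of the 36 arrays of the series, 3 at day 21 and 3 at day 14, chosen by the muscle and age in their titles. Each array held total RNA of gastrocnemius and soleus, the calf muscles, with soleus the slower of the pair, hybridised to the Affymetrix RG-U34A rat array. The other arrays covered the same leg sample at days 0, 7, 28 and 45 and extraocular muscle (EOM), the muscles that move the eye, at the same 6 ages. The labels give no strain, sex or treatment, and they do not say whether replicate arrays came from separate animals or from pools, and a p-value here can reflect no more than array-to-array spread, which may be technical. Gastrocnemius and soleus share each array, so a change in one of them cannot be told apart from a change in both.

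Skeletal muscle fibres replace their contractile proteins after birth. Embryonic and perinatal (neonatal) myosin heavy chains give way to adult fast and slow chains, muscle cell precursors stop dividing, the motor nerve endings are pruned to one per fibre, and the acetylcholine receptor of the synapse exchanges its fetal gamma subunit for epsilon. In rodents the third week is also the time of weaning, when milk fat is replaced by a diet of starch, and a time when circulating glucocorticoids rise. Igf2 and several other imprinted genes that support fetal growth are known to be turned down in many tissues over the first weeks of life.

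The filter on dim signal kept 6672 of 8799 probe sets, and 5451 of these carried 1 gene symbol, for 3889 genes. Values are intensities on the scale the authors deposited, raised to a floor of 100 before log2 was taken. Array medians of the 6 leg arrays were 418.7 to 468.9 at day 21 and 483.9 to 500.3 at day 14, and the floor took in 19.8% to 23.5% of each array's values. Arrays correlated at 0.925 to 0.935 within day 21, at 0.934 to 0.939 within day 14 and at 0.910 to 0.957 between the ages, so the ages did not separate by overall correlation. The summed intensity of 14 skeletal muscle genes measured was 217304 to 238521 at day 21 and 171546 to 207354 at day 14, with Myh4, Myh7, Tnni2 and Myl1 bright on all 6 arrays. The ages did not overlap in this sum, and its part in the results was not tested. The creatine kinase gene Ckm was an exception, since it read 0.3, 0.3 and 0.0 at day 21 and 893.7, 0.1 and 0.0 at day 14. Its probe set was not taken as a measure of muscle content. Ttn, also among the 14, was uneven within each age, at 1509, 749.8 and 78.0 at day 21 and 449.5, 782.5 and 101.3 at day 14. With 3 arrays at each age, the number of arrays limits the precision, and in whole muscle fewer cells of a type and less RNA per cell cannot be told apart.

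The third week changed few probe sets. By limma's moderated test with Benjamini-Hochberg adjustment, 44 of 6672 passed an adjusted p of 0.05 (0.659%), 12 of them higher at day 21 (0.18%) and 32 lower (0.48%), and 35 of the 44 differed by 2-fold or more. On all 44 the 3 arrays of one age lay above the 3 of the other, and 815 probe sets had an unadjusted p under 0.05. The 44 included 38 probe sets with 1 symbol, for 34 genes, of which 9 were higher and 25 lower, and 6 sets with no symbol or several. Read by the brightest probe set of each gene, 6 of 3889 genes rose (0.154%) and 16 fell (0.411%). For scale, 260 probe sets changed between days 7 and 14 in leg (3.9%) and 10 between days 21 and 28 (0.15%), counts that ran from 162 to 279 and from 4 to 20 when 1 of their arrays was left out. Those comparisons share the day 14 and the day 21 arrays with the third week.

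The count rested on the spread pooled over all 12 groups and on single arrays. With the 6 arrays alone 1 probe set passed, a Myh3 probe set with adjusted p = 0.0078. Leaving out day 21 replicate 1, 2 or 3 gave counts of 12, 17 or 98, and leaving out day 14 replicate 1, 2 or 3 gave 12, 26 or 26. Day 21 replicate 3 lay closest to the day 14 mean on 28 of the 44 probe sets, against 11 for replicate 1 and 9 for replicate 2, ties counted for each. The calls on Myh8, on 2 probe sets of Myh3 and on Rrad, Glul, Cabin1 and Snrnp70 held in all 6 of these leave-one-out fits, while those on Chrnd and a second Glul probe set held in none. The median log2 difference over all tested probe sets was -0.12 as deposited and 0.04 after each array was scaled to the same median. The second scaling turned the split from 12 higher and 32 lower to 16 higher and 14 lower, with 26 of the 44 calls kept.

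The largest fall with a bright signal was in Myh8, the perinatal myosin heavy chain. Its probe set read 3659, 2511 and 1147 at day 21, against 9056, 12092 and 10994 at day 14, so every day 21 array lay far below every day 14 array. The difference was -2.28 ± 0.29 on the log2 scale (SE of the fit, n = 3 arrays an age), a 4.85-fold lower level at day 21 (limma adjusted p = 4.64e-05). Over the whole course the leg mean was 14.34, 14.69, 13.38, 11.10, 8.54 and 7.15 log2 units at days 0, 7, 14, 21, 28 and 45. The changes in the weeks before and after, which share arrays with the third week, were -1.31 (limma adjusted p = 0.00482) and -2.56 (limma adjusted p = 4.02e-06).

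Myh3, the embryonic myosin heavy chain, is read by 5 probe sets, and 2 of them fell. The set K03468_s_at read 2664, 2237 and 1163 at day 21 and 7753, 9735 and 5270 at day 14, a change of -1.95 ± 0.27 (limma adjusted p = 0.000177). The set K03467_s_at read 2260, 2584 and 2149 at day 21 and 10513, 9040 and 10336 at day 14, a change of -2.10 ± 0.33 (limma adjusted p = 0.000652). Neither set had overlapping ages. The brightest Myh3 set, M12098_s_at, gave -0.94 ± 0.39 and did not pass (limma adjusted p = 0.313), although its arrays did not overlap. The set L00370cds_s_at gave -0.07 ± 0.67, and X04267_at gave 2.98 ± 1.63 with day 14 replicate 2 at the floor and the other 5 arrays bright. Myosin heavy chain genes are alike in sequence, and signal of one chain on probes for another was not tested.

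The list of developmental sarcomere and cytoskeleton genes had 12 measured members with a median difference of -0.57, against -0.12 for all 3889 genes. Of these 1 was called, lower, and 4 had day 21 arrays wholly below day 14, where 13.5% of all genes did. Beside Myh8 and Myh3 these were Nes, the intermediate filament nestin of immature fibres (-0.71 ± 0.19), and Stmn1, a microtubule regulator of dividing cells (-0.59 ± 0.23), neither of which passed over all probe sets. Myl4, the embryonic light chain, read 380.2, 510.4 and 639.2 at day 21 and 610.2, 802.8 and 812.9 at day 14 (-0.56 ± 0.33, limma adjusted p = 0.51). This set had changed by -4.54 between days 7 and 14 (limma adjusted p = 5.44e-11). The other Myl4 set had a higher mean at day 21 and was not called. Tnnt2, cardiac troponin T, which immature fibres use, gave -0.51 ± 0.44 with overlapping arrays.

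No adult isoform passed the test. Of 14 adult fast fibre genes 0 were called by limma, 1 had an unadjusted p under 0.05, and their median difference was 0.16. Myh4, the heavy chain of the fastest fibres, read 29890, 29715 and 28885 at day 21 and 27293, 21947 and 20347 at day 14. The ages did not overlap for Myh4, but the difference of 0.36 ± 0.37 did not pass (limma adjusted p = 0.75), and these readings lie in the brightest range of the arrays, where a rise may be read too small. Myh1 and Myh2, the other adult fast chains, gave 0.15 ± 0.34 and 0.17 ± 0.27, and the slow chain Myh7 gave 0.22 ± 0.21. Among 10 slow fibre genes 0 were called by limma and 2 had an unadjusted p under 0.05, Tpm3 at -0.57 ± 0.19 and Myl3 at 0.65 ± 0.29. The slow troponin Tnni1 (0.19 ± 0.26) and the calcium buffer Pvalb of fast fibres (-0.04 ± 0.33) had overlapping ages. Tpm1, a tropomyosin with many splice forms, was called lower on 1 of its 5 probe sets (-1.05 ± 0.25, limma adjusted p = 0.0427), whereas its brightest set gave 0.30 ± 0.95 and the call held in 1 of 6 leave-one-out fits (limma adjusted p up to 0.223).

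**Figure D1:**
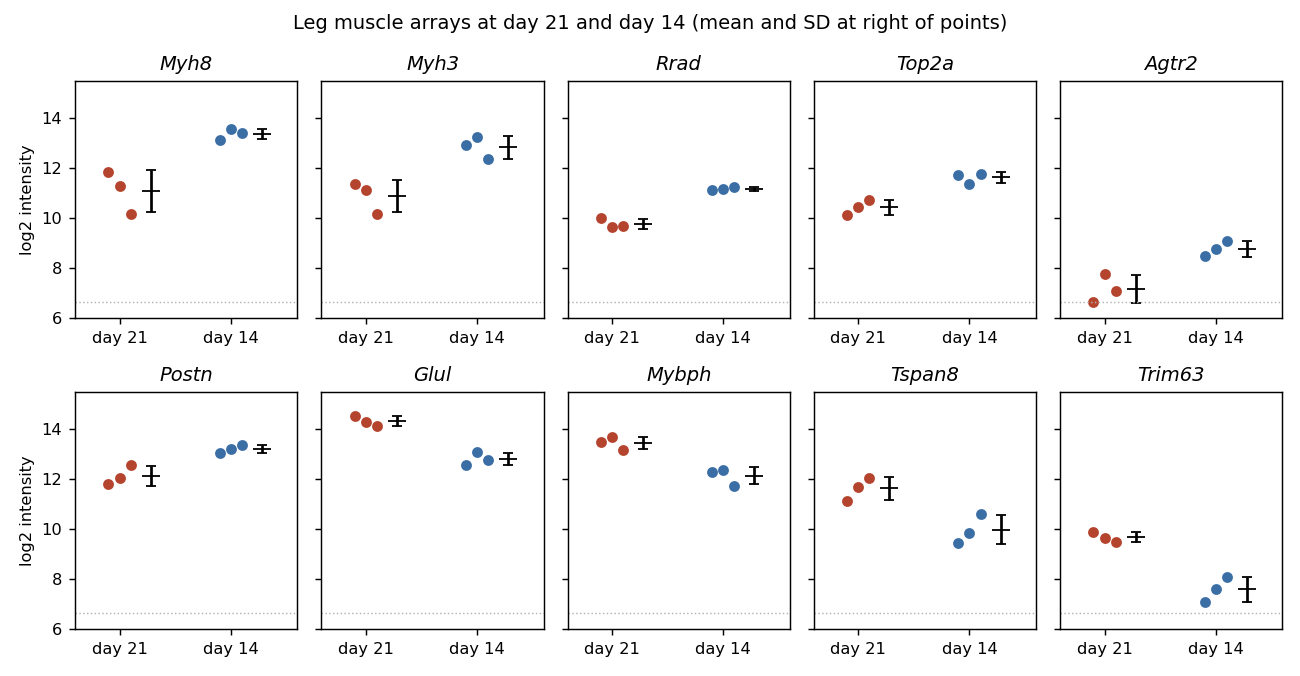
Log2 intensity of 10 genes called in the third week of leg, 1 point for each array at day 21 (left, red) and day 14 (right, blue), with the mean and SD of the 3 arrays beside the points and the floor as a dotted line. For each gene the 3 points of one age lie above the 3 of the other; Myh3 is shown by the set K03468_s_at and Trim63 by its dimmer set.

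The cell division genes that passed the test were all lower. Top2a, the topoisomerase that untangles replicated chromosomes, read 1116, 1413 and 1687 at day 21 and 3424, 2661 and 3540 at day 14, 2.3-fold lower (-1.20 ± 0.26, limma adjusted p = 0.0196). Mcm6, a subunit of the helicase that opens replication origins, read 388.6, 590.3 and 1086 at day 21 and 1309, 1314 and 1593 at day 14 (-1.15 ± 0.24, limma adjusted p = 0.0153). In both genes every day 21 array was below every day 14 array. A second Mcm6 probe set also fell (-1.33 ± 0.26), and the remaining set (-0.93 ± 0.44) and the other Top2a sets (-0.62 ± 0.61 and -0.45 ± 0.32) were lower without passing. Racgap1, which acts at the cleavage furrow of dividing cells, gave -0.90 ± 0.21 (limma adjusted p = 0.0427). When 1 of the 6 arrays was left out, the calls on Top2a and on the brighter Mcm6 set held in 2 of 6 fits and that on Racgap1 in 1, with adjusted p-values up to 0.152, 0.193 and 0.259.

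Of 27 cell cycle genes measured, 2 were called, both lower, and 13 had day 21 arrays wholly below day 14, against 13.5% of all genes. The median of the list was -0.43 as deposited and -0.27 after median scaling, which left 6 genes wholly below (22.2%, against 5.45% of all genes). Hmgb2, a chromatin protein of proliferating cells (-1.15 ± 0.36), and the G1 cyclin genes Ccnd1 (-0.62 ± 0.25) and Ccnd3 (-0.62 ± 0.17) did not pass, nor did Cdk4 (-0.57 ± 0.17) and the mitotic kinase gene Cdk1 (-0.54 ± 0.25). Gadd45a, a stress-induced growth arrest gene, was the 1 member with day 21 arrays wholly above (0.33 ± 0.20).

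The promoters of both called genes of this list are shown because CCAAT boxes and a CHR element (TTTGAA) near the start are known from genes of late cell cycle phases such as Top2a, whereas Mcm6 belongs to the earlier licensing of replication. The 250 bases before the RefSeq start were read 5′ to 3′ on the strand of the gene, from the GRCr8 build, at chr10:84473094-84473343 for Top2a and chr13:42404353-42404602 for Mcm6, both on the minus strand, and capitals mark each CCAAT and TTTGAA match on either strand.

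Top2a: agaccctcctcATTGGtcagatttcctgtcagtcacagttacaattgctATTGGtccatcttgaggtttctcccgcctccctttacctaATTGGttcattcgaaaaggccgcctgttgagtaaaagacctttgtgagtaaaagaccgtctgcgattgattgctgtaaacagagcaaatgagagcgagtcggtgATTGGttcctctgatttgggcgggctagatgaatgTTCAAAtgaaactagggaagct

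Mcm6: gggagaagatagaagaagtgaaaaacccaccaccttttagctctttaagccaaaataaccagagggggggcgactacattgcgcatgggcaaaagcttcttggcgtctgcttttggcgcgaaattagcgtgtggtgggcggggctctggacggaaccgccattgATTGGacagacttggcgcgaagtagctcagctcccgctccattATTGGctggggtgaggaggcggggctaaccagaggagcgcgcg

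The Top2a window held 4 CCAAT matches and 1 TTTGAA match, with 16 bases between that match and the start, and the Mcm6 window held 2 CCAAT matches and no TTTGAA. Of 33469 rat promoter windows of this length, 11385 held CCAAT and 5422 (16.2%) held TTTGAA on either strand. A match of letters is a description and not a measured binding site.

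The matrix genes of connective tissue that passed the test were lower as well. Postn, the matrix protein periostin of growing connective tissue, read 3548, 4239 and 6116 at day 21 and 8405, 9474 and 10513 at day 14, 2.09-fold lower (-1.06 ± 0.21, limma adjusted p = 0.0129). Col12a1, a collagen that sits on the surface of collagen fibrils, read 582.3, 419.2 and 673.1 at day 21 and 1124, 1151 and 1209 at day 14 (-1.08 ± 0.26, limma adjusted p = 0.0441). Lox, the enzyme that cross-links collagen and elastin, was lower on all 4 of its probe sets, by 0.79 to 0.94 log2 units, and 1 set passed (-0.86 ± 0.21, limma adjusted p = 0.0475). With 1 of the 6 arrays left out, these calls held in 3 of 6 fits for Postn, 1 for Col12a1 and 2 for Lox. Postn fell again in the week after, to a mean of 10.99 log2 units at day 28, against 12.14 at day 21 (limma adjusted p = 0.016).

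Among 9 collagen genes 1 was called and 5 had day 21 arrays wholly below day 14 (55.6%, against 13.5% of all genes), with a median of -0.54. The cartilage collagens Col11a1 (-1.15 ± 0.49) and Col2a1 (-0.95 ± 0.41) and the basement membrane collagen Col15a1 (-0.75 ± 0.23) were among the 5 and did not pass. Of the major fibrillar collagens, the brightest sets of Col1a1 and Col3a1 gave 0.28 ± 0.18 and -0.05 ± 0.20, with readings from 23023 to 34310 that lie in the brightest range of the arrays. A less bright Col3a1 set, M21354_s_at, gave -0.49 ± 0.31, and none of the sets of either gene passed. Of 34 other matrix genes 1 was called and 14 lay wholly below (41.2%), with a median of -0.39. Fn1, fibronectin (-0.70 ± 0.20), the gelatinase Mmp2 (-0.62 ± 0.19) and the inhibitor of metalloproteases Timp1 (-0.82 ± 0.33) were lower without passing, while Sparc, a collagen-binding protein, lay wholly above at 0.36 ± 0.21. After median scaling, under which 5.45% of all genes lay wholly below, the collagens had a median of -0.38 with 5 wholly below and 2 wholly above, and the other matrix genes -0.23 with 6. The summed tendon, cartilage and bone markers, which include Col2a1 and Col11a1, moved with them, at 11720 to 13587 at day 21 against 14268 to 16337 at day 14 (10 of 18 markers measured, with Ibsp at the floor on all 6 arrays), and their part in the result was not tested.

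Gpc3, Agtr2 and Fgfr4, named here as single calls and not as a list, were lower on at least 1 probe set each. Gpc3, a cell-surface glypican that restrains growth, read 1514, 1465 and 1869 at day 21 and 3331, 2746 and 4355 at day 14 (-1.09 ± 0.22, limma adjusted p = 0.0129). It is on a long decline in leg, with a mean of 8.39 log2 units at day 45 and 13.61 at day 0, but its other 2 probe sets gave 0.11 ± 0.37 and 0.16 ± 0.53. Agtr2, the angiotensin receptor of fetal tissues, read 70.3, 216.4 and 136.2 at day 21 and 357.4, 431.9 and 552.1 at day 14, at least 3.07-fold lower, with 1 day 21 array at the floor (-1.62 ± 0.29, limma adjusted p = 0.00454). The Agtr2 mean fell by 2.24 between days 7 and 14 and was at the floor on all leg arrays at days 28 and 45, and its second probe set gave -0.50 ± 0.38 in the third week. Fgfr4, the fibroblast growth factor receptor of muscle precursors, read 953.6, 1225 and 627.0 at day 21 and 2522, 1971 and 1473 at day 14 (-1.11 ± 0.26, limma adjusted p = 0.0382). Its second probe set was lower without passing. The calls on Gpc3, Agtr2 and Fgfr4 held in 2, 5 and 2 of the 6 leave-one-out fits. Of 13 myogenic regulators 0 were called by limma and 2 had an unadjusted p under 0.05, with a median of -0.16 that became 0.01 after median scaling.

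**Figure D2:**
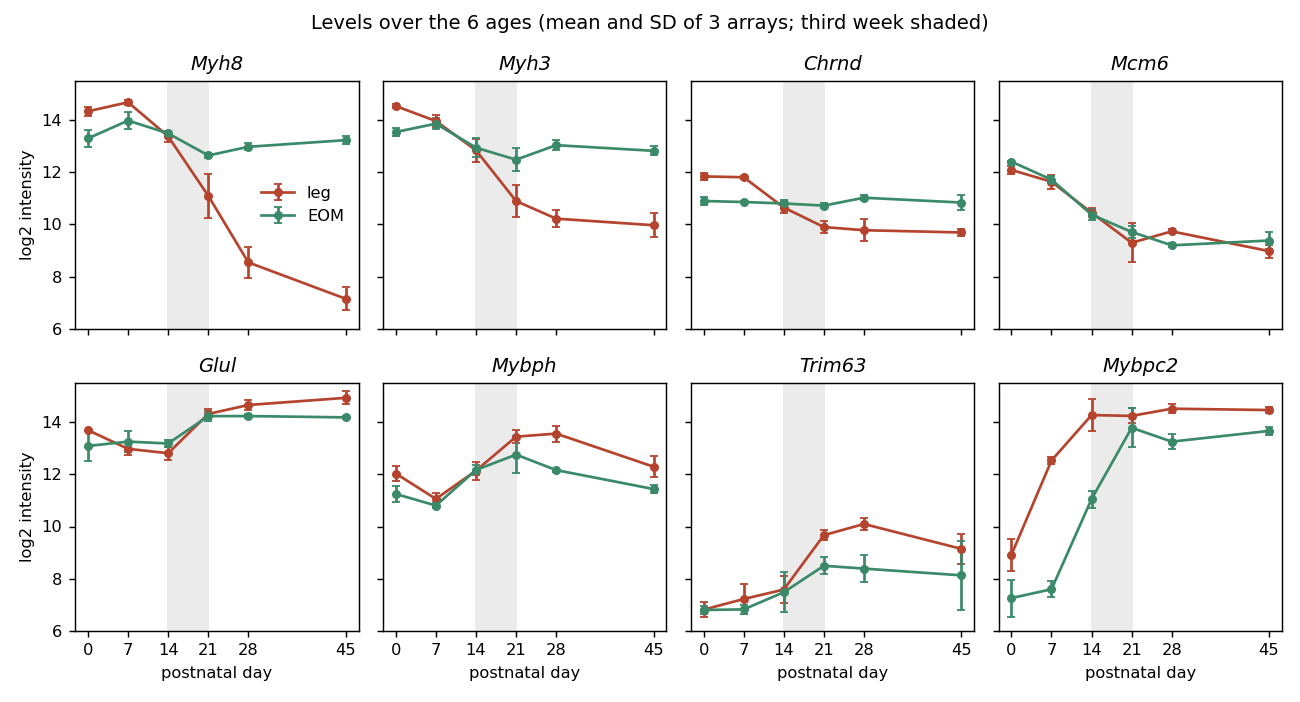
Mean log2 intensity and SD of 3 arrays for 8 genes at postnatal days 0, 7, 14, 21, 28 and 45, in leg (red) and EOM (green), with the third week shaded. Myh8, Myh3, Chrnd and Mcm6 pass through the shaded week on a fall in leg, whereas Glul, Mybph and Trim63 climb in it, and Mybpc2 is level in leg across the shaded week.

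At the neuromuscular junction, Chrnd, the delta subunit of the acetylcholine receptor, read 1055, 1037 and 795.3 at day 21 and 1452, 1868 and 1528 at day 14, 1.68-fold lower with no overlap (-0.75 ± 0.18, limma adjusted p = 0.0471). In each fit that left out 1 of the 6 arrays the adjusted p was above 0.05, at 0.0760 to 0.204, so this call needs every array. The mean stood at 11.84 and 11.81 log2 units at days 0 and 7, 10.65 at day 14, 9.90 at day 21, 9.78 at day 28 and 9.69 at day 45. Chrng, the fetal gamma subunit, read 1840, 1952 and 1518 at day 21 and 2281, 2632 and 2298 at day 14, also without overlap (-0.45 ± 0.17), and did not pass (limma adjusted p = 0.281). Chrne, the adult epsilon subunit, read 1622, 1847 and 1132 at day 21 and 1277, 1933 and 1738 at day 14, with overlapping ages (-0.11 ± 0.24). Agrn, the nerve-derived organiser of the synapse, gave -0.66 ± 0.19 without overlap (limma adjusted p = 0.11). Of 14 junction genes 1 was called, 4 lay wholly below (28.6%, against 13.5% of all genes) and 0 wholly above (against 6.09%), with a median of -0.28.

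The Chrnd promoter is shown because E-boxes (CANNTG), which bind myogenic factors, are known to control receptor subunit genes; the window of 250 bases before its RefSeq start lies at chr9:95310066-95310315 on the plus strand of GRCr8, and capitals mark its 1 E-box, with 73 bases between it and the start. E-boxes were found in 65.5% of all promoter windows.

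Chrnd: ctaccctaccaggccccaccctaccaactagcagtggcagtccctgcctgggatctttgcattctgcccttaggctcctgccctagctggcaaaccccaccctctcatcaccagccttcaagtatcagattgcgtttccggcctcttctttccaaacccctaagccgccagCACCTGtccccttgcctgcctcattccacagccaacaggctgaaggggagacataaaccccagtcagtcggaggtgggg

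The summed intensity of Schwann cell and axon markers was 19123 to 24468 at day 21 and 27898 to 34209 at day 14, with no overlap, over 16 of 20 markers measured (Nefm was at the floor on all 6 arrays). Of the 16, 0 were called by limma and 4 had an unadjusted p under 0.05. Their median difference was -0.26, against -0.12 over all genes, and 3 lay wholly below, or 18.8% against 13.5% of all genes. After median scaling 1 lay wholly below, or 6.25% against 5.45% of all genes. The myelin protein gene Pmp22 (-0.85 ± 0.25), the myelin regulator Egr2 (-0.96 ± 0.35) and the Schwann cell scaffold Prx (-0.66 ± 0.26) were the ones below, while S100b (-1.18 ± 0.88) had overlapping ages. The part of nerve in the junction values was not tested.

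Among the remaining genes that fell, Rrad, a small GTPase that restrains the L-type calcium channel, had the tightest values. It read 1026, 804.1 and 817.2 at day 21 and 2221, 2290 and 2437 at day 14, 2.64-fold lower (-1.40 ± 0.20, limma adjusted p = 0.000177). Its mean was 12.84 log2 units at day 0, 9.78 at day 21 and 10.98 at day 45, so the lowest age was day 21. Adrb3, a beta-adrenergic receptor best known from fat, read 316.0, 764.0 and 492.2 at day 21 and 1324, 877.3 and 1400 at day 14 (-1.26 ± 0.24, limma adjusted p = 0.00941), and its means of 10.20, 8.94 and 9.87 log2 units at days 14, 21 and 28 form a dip. Ppp1r15a, a phosphatase subunit that restores translation after stress, fell by 1.01 ± 0.21 on the log2 scale (limma adjusted p = 0.0138) and stood at 10.96 at day 45, against 10.92 at day 14. The second Ppp1r15a set was lower without passing. Ywhaq, a 14-3-3 adaptor protein, fell by 0.81 ± 0.20 (limma adjusted p = 0.0475), and its other 2 sets were lower without passing. The Rrad call held in 6 of 6 leave-one-out fits, those on Adrb3 and Ppp1r15a in 3 and that on Ywhaq in 1.

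Of the heat shock genes, Dnajb1, a co-chaperone of Hsp70, was called on 1 of 2 probe sets (-0.75 ± 0.18, limma adjusted p = 0.0475; brightest set -0.40 ± 0.24). A probe set annotated to both inducible Hsp70 genes, Hspa1b and Hspa1a, read 1625, 1037 and 2043 at day 21 and 2902, 3525 and 2964 at day 14 and was called lower (-1.05 ± 0.22, limma adjusted p = 0.0192). The set specific to Hspa1a gave -1.10 ± 0.27 and lay just outside the threshold (limma adjusted p = 0.0504). The Dnajb1 call held in 2 of 6 leave-one-out fits, with an adjusted p up to 0.231, and that on the shared Hsp70 set in 1, with up to 0.172. By brightest probe set 0 of the 22 heat shock and chaperone genes were called by limma and 4 had an unadjusted p under 0.05. Their median of -0.13 is close to that of all genes. Of the 22, 6 lay wholly below (27.3%, against 13.5% of all genes) and 2 wholly above (9.09%, against 6.09%). Median scaling left 2 below (9.09%, against 5.45% of all genes), and quantile normalization gave 8 (36.4%, against 8.67%). Of 17 immediate early genes 0 were called and 4 had an unadjusted p under 0.05, with a median of -0.31. Egr2, Atf3 (-0.88 ± 0.31), Egr1 (-0.70 ± 0.35) and Fos (-0.42 ± 0.26) lay wholly below (23.5%, against 13.5% of all genes). None lay wholly above, against 6.09% of all genes. After median scaling 3 lay wholly below (17.6%, against 5.45% of all genes).

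For 6 further genes the call came from 1 probe set and other sets did not share it; all but Golgb1 are named after their values were seen. Golgb1, the Golgi protein giantin, read 97.0, 170.2 and 582.4 at day 21 and 1038, 885.3 and 905.9 at day 14, at least 4.38-fold lower (limma adjusted p = 0.0182), but its second set gave -0.54 ± 0.48. The called sets of Cabin1, a calcineurin inhibitor (-1.88 ± 0.30), and Snrnp70, a spliceosome protein (-1.89 ± 0.32), each had a brighter set that gave 0.38 ± 0.78 and 0.47 ± 0.41. Gng8, a G protein subunit (-1.50 ± 0.35), Cngb1, a cyclic nucleotide-gated channel subunit (-1.47 ± 0.29), and the protein kinase C gene Prkce (-1.70 ± 0.42) had brightest sets at 0.09 ± 0.57, -0.16 ± 0.20 and -0.15 ± 0.25. Cfap97, a cilia protein with 1 probe set, was at the floor on all 3 day 21 arrays and read 434.8, 322.2 and 362.6 at day 14, at least 3.7-fold lower (limma adjusted p = 0.0382). The calls on Cabin1 and Snrnp70 held in 6 of 6 leave-one-out fits, that on Cngb1 in 4, and those on Golgb1, Gng8, Prkce and Cfap97 in 1. Without day 21 replicate 3 the change was -2.85 for Golgb1 and -2.33 for Prkce.

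Over the 32 lower probe sets, 25 stood higher at day 0 than at day 14, and 23 stood higher at day 7 than at day 14. At day 28 all 32 remained below their day 14 mean, and at day 45 there were 27. Within that, 17 were higher at day 28 than at day 21, and for 13 the day 21 mean was below that of each of the other leg ages. Such sets include Golgb1, Cabin1, Gng8 and Adrb3 and differ in course from Myh8, Postn and Gpc3, whose means were lower at day 28 than at day 21. The 32 were chosen for high day 14 and low day 21 values. Later means below day 14 or above day 21, and a lowest mean at day 21, are partly fixed by that choice. The share of all tested probe sets with such courses was not computed.

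Among the genes called higher, Glul encodes glutamine synthetase, which makes the glutamine that muscle exports and is a known glucocorticoid target in muscle. Its brightest probe set read 23606, 20265 and 17771 at day 21 and 6130, 8649 and 6993 at day 14, 2.84-fold higher with a wide gap (1.51 ± 0.22, limma adjusted p = 0.000177). A second set passed (0.97 ± 0.23, limma adjusted p = 0.0452), and the others were higher at 1.11 ± 0.31 and 1.09 ± 0.46 without passing. The leg mean was 13.7, 12.98 and 12.81 log2 units at days 0, 7 and 14, and 14.32, 14.66 and 14.94 at days 21, 28 and 45. The third-week rise thus started from the lowest of the leg ages and ended above the day 0 mean.

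Trim63, the ubiquitin ligase MuRF1 of muscle protein breakdown, rose on the dimmer of its 2 probe sets, which read 946.4, 793.0 and 716.9 at day 21 and 133.7, 193.0 and 271.7 at day 14, 4.25-fold higher (2.09 ± 0.46, limma adjusted p = 0.0253). The brighter set gave 0.64 ± 0.22 without overlap and did not pass (limma adjusted p = 0.202). Cebpd, a transcription factor of the acute and glucocorticoid response, rose on its dimmest set, which read 1336, 1961 and 818.9 at day 21 and 142.5, 312.5 and 165.4 at day 14, 6.63-fold higher (2.73 ± 0.62, limma adjusted p = 0.0346). Its other sets gave 0.80 ± 0.28 and 0.33 ± 0.37. Both calls held in 2 of the 6 leave-one-out fits. The Cebpd mean stood at 10.33 log2 units at day 21, 8.67 at day 28 and 7.77 at day 45, a peak at day 21.

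Among 16 thyroid and glucocorticoid targets and receptors 1 was called by brightest set, Glul, and 5 lay wholly above, where 6.09% of all genes did, with 2 wholly below. Beside Glul, Trim63 and Cebpd these were Klf9, a target of both hormones, which read 6478, 6719 and 7853 at day 21 and 929.5, 5880 and 5741 at day 14 (1.15 ± 0.40, limma adjusted p = 0.2), a difference carried by day 14 replicate 1, and Cebpb, with 7029, 8521 and 6956 at day 21 against 2841, 3480 and 4560 at day 14 (1.07 ± 0.36, limma adjusted p = 0.18). The receptor genes Nr3c1 (-0.55 ± 0.48) and Thra (-0.52 ± 0.20) were the ones wholly below. The list's median was 0.06, against -0.12 over all genes.

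The Trim63 promoter is shown because glucocorticoid receptor is known to act through a palindromic element in this gene in other mammals. The 250 bases before its RefSeq start lie at chr5:151816986-151817235 on the plus strand of GRCr8, and capitals mark its 1 match to GNACANNNTGTNC, with 206 bases between it and the start. Of all promoter windows 0.374% (125 of 33469) held such a match.

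Trim63: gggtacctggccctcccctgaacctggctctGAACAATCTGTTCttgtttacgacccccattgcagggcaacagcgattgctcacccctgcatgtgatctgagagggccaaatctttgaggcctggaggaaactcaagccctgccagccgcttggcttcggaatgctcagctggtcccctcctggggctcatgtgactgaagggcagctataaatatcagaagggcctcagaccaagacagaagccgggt

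Mybph, a myosin binding protein H of the sarcomere, rose on both of its probe sets. The brighter read 11542, 13051 and 9209 at day 21 and 5045, 5323 and 3429 at day 14, 2.47-fold higher (1.30 ± 0.26, limma adjusted p = 0.0116), and the other gave 1.87 ± 0.39 (limma adjusted p = 0.0153). The brighter set had means of 12.14, 13.45, 13.56 and 12.29 log2 units at days 14, 21, 28 and 45, so the rise was not kept to day 45. Vamp5, a SNARE protein of muscle cell membranes, read 4212, 4848 and 4345 at day 21 and 1979, 2789 and 2678 at day 14 (0.86 ± 0.18, limma adjusted p = 0.0153), a continued rise after 1.52 between days 7 and 14, while a second set gave -0.11 ± 0.65. Tspan8, a tetraspanin known from epithelia, read 2240, 3293 and 4275 at day 21 and 701.4, 916.4 and 1553 at day 14, 3.16-fold higher (1.66 ± 0.40, limma adjusted p = 0.0454). Among 12 epithelial markers Tspan8 was the 1 called. The other 11 had a median difference of -0.55 and a summed level of 2933 to 3345 at day 21 and 3824 to 4914 at day 14, lower at day 21 without overlap. The calls on Mybph and Vamp5 held in 3 of the 6 leave-one-out fits and that on Tspan8 in 1.

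Ldhd and Ivd, also called higher, encode mitochondrial dehydrogenases. Ldhd, which oxidises D-lactate, read 607.2, 490.3 and 478.6 at day 21 and 158.2, 293.7 and 298.7 at day 14, 2.17-fold higher (1.12 ± 0.27, limma adjusted p = 0.0475). It was at the floor on all leg arrays at days 0 and 7, and its leg mean was 9.52 log2 units at day 28 and 9.46 at day 45. Ivd, of leucine breakdown, rose on 1 of 3 sets by 0.73 ± 0.15 (limma adjusted p = 0.0153), and its brightest set gave 0.13 ± 0.18. With 1 array left out, the Ldhd call held in 1 of 6 fits and that of Ivd in 3. Over all 12 probe sets called higher, the mean stood above that of day 14 at days 28 and 45. The 12 were chosen for low day 14 values, so this is partly fixed by that choice. It is not a separate test of whether the rises were kept.

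The Igf2 probe sets disagreed. The brightest over the series, X17012mRNA_s_at, rose to 5526, 5993 and 12905 at day 21, against 2158, 669.4 and 859.6 at day 14, 7.01-fold (2.81 ± 0.66, limma adjusted p = 0.0427), and this call held in 1 of 6 leave-one-out fits. None of the other 4 sets was called. The set E00988mRNA_s_at lay wholly below at day 21 (-0.92 ± 0.64, limma adjusted p = 0.6), with means of 13.22, 13.23, 12.31, 10.96 and 7.22 log2 units at days 7, 14, 21, 28 and 45. The sets M17960_at, M17960_g_at and X16703_r_at gave 0.01 ± 0.32, 0.30 ± 0.30 and -0.74 ± 0.49. No direction for Igf2 as a gene can be read from sets that move in opposite ways. Which transcripts each set detects was not examined here.

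**Figure D3:**
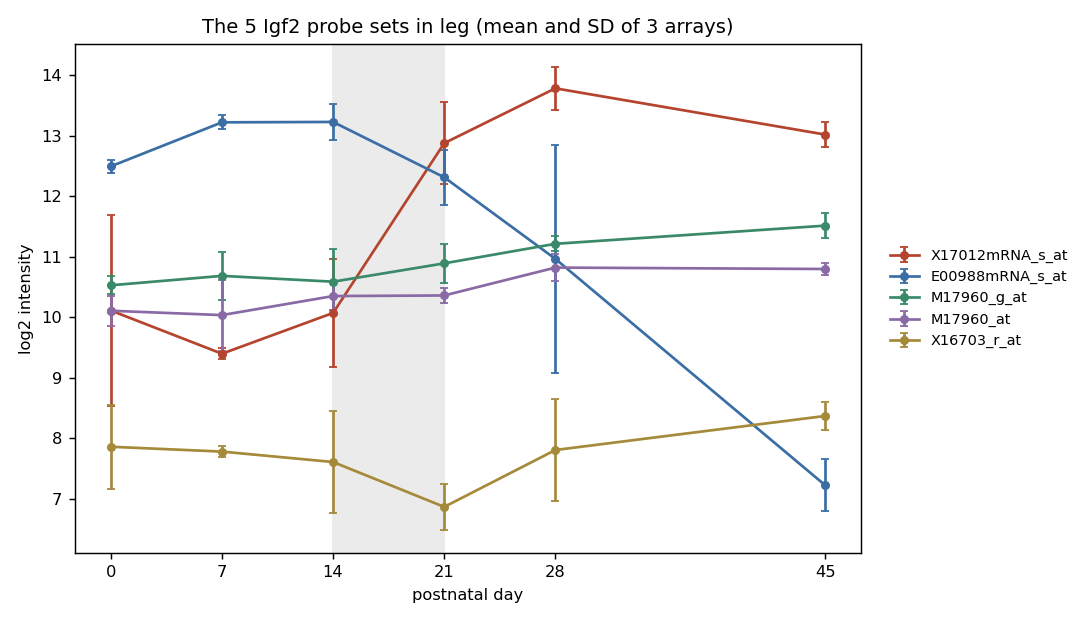
Mean log2 intensity and SD of 3 leg arrays for the 5 Igf2 probe sets at postnatal days 0, 7, 14, 21, 28 and 45, with the third week shaded. The set X17012mRNA_s_at climbs through the shaded week to 13.79 at day 28 and stands at 13.02 at day 45, while E00988mRNA_s_at declines to 7.22 at day 45. Levels of different sets cannot be set against each other.

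Other imprinted genes were read against this. Of 11 measured, 1 was called, Igf2, and 5 lay wholly below (45.5%, against 13.5% of all genes) and 2 wholly above (18.2%, against 6.09%). Those below were Ndn, a growth suppressor (-0.88 ± 0.35), Dlk1, a regulator of fat and muscle precursors (-0.85 ± 0.61), the growth regulator Plagl1 (-0.76 ± 0.22), the scavenger receptor Igf2r (-0.76 ± 0.24) and the cell cycle inhibitor Cdkn1c (-0.48 ± 0.28), none of them past the threshold. H19, the non-coding RNA next to Igf2, lay above on its brighter set, which read 15374, 18747 and 18961 at day 21 and 8999, 1966 and 3034 at day 14 (2.22 ± 0.64, limma adjusted p = 0.11). Of 19 genes of the insulin-like growth factor and growth hormone axis 1 was called, Igf2 again. The median was -0.23, and 14 of the 19 had a lower mean at day 21. In this list 3 lay wholly above (15.8%, against 6.09% of all genes) and 2 wholly below (10.5%, against 13.5%). Ghr, the growth hormone receptor (0.53 ± 0.24), and Cish, which it induces (1.03 ± 0.35), lay wholly above without passing.

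No gene on the energy lists passed by its brightest probe set. Of 41 respiratory chain and citrate cycle genes 0 were called by limma and 5 had an unadjusted p under 0.05, but 34 of the 41 had a higher mean at day 21, 14 lay wholly above (34.1%, against 6.09% of all genes) and 0 wholly below, with a median of 0.28. Median scaling gave 25 wholly above (61.0%, against 11.8% of all genes) and a median of 0.45. Quantile normalization gave 1 above (2.44%, against 7.20%), 2 below and a median of 0.07, so this shift depends on the scaling. Cox7b, a subunit of cytochrome oxidase (0.43 ± 0.19), Ckmt2, the mitochondrial creatine kinase (0.56 ± 0.25), and Suclg1 of the citrate cycle (0.40 ± 0.16) were among those above. Of 27 glycolysis and glycogen genes 0 were called by limma and 7 had an unadjusted p under 0.05, with 8 wholly above (29.6%, against 6.09% of all genes), 2 wholly below and a median of 0.30. Median scaling gave 13 above (48.1%, against 11.8% of all genes) and a median of 0.47, and quantile normalization 6 above (22.2%, against 7.20%) and 0.19. Eno3, the muscle enolase (0.46 ± 0.20), Pgk1 (0.36 ± 0.16) and Phkg1, the catalytic subunit of muscle phosphorylase kinase (0.59 ± 0.20), lay above, and Pygb, the brain-type phosphorylase of immature muscle, lay below (-0.66 ± 0.25). Gpd1, glycerol phosphate dehydrogenase, gave 0.46 ± 0.65 with overlapping ages.

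Fatty acid genes gave 0 calls by limma among 32, with 6 at an unadjusted p under 0.05. The list's median was 0.06, with 5 wholly above (15.6%, against 6.09% of all genes) and 1 wholly below (3.125%, against 13.5%). Quantile normalization left 2 above (6.25%, against 7.20% of all genes). Acadvl, which starts the oxidation of long chains (0.67 ± 0.24), and the fatty acid carrier Fabp3 (0.44 ± 0.20) were among the 5 above. Cpt1a went the other way with overlapping ages (-0.87 ± 0.32, limma adjusted p = 0.242). Cpt1b, the muscle carnitine transferase, read 17047, 17630 and 14858 at day 21 and 2245, 14428 and 14632 at day 14 (1.08 ± 0.39, limma adjusted p = 0.23), a difference carried by day 14 replicate 1. Pdk4, which spares glucose when fat is burned, read 1711, 1465 and 715.4 at day 21 and 1208, 1950 and 744.4 at day 14 (0.01 ± 0.61), and Ucp3, a mitochondrial carrier linked to fat use, gave -0.02 ± 0.25, so no difference was detectable at this precision for either.

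Lipid and cholesterol synthesis gave no call. Of 18 genes 0 were called by limma and 4 had an unadjusted p under 0.05, while 8 lay wholly below (44.4%, against 13.5% of all genes) and 1 wholly above, with a median of -0.45. Median scaling left 1 below (5.56%, against 5.45% of all genes) and a median of -0.29, and quantile normalization left 3 (16.7%, against 8.67%) and -0.33. Sqle, squalene epoxidase of cholesterol synthesis, read 50.3, 263.0 and 388.3 at day 21 and 770.4, 539.0 and 492.3 at day 14 (-1.44 ± 0.38, limma adjusted p = 0.0709). Acaca (-0.79 ± 0.41), Acly (-0.60 ± 0.26) and Fasn (-0.46 ± 0.27), which build fatty acids, lay wholly below. Scd, the stearoyl desaturase of fat, read 528.0, 386.4 and 1693 at day 21 and 5567, 1506 and 946.1 at day 14, with overlapping ages (-1.51 ± 0.51, limma adjusted p = 0.188). Adipocyte markers, Scd among them, summed to 32979 to 34871 at day 21 and 35084 to 40665 at day 14 (11 of 16 measured). Their median difference was -0.11, against -0.12 for all genes. Of the 11, 2 lay wholly below (18.2%, against 13.5% of all genes) and 1 wholly above (9.09%, against 6.09%). The 1 above was Cebpa (1.20 ± 0.57, limma adjusted p = 0.385). The part of adipocytes in the lipid values was not tested.

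**Figure D4:**
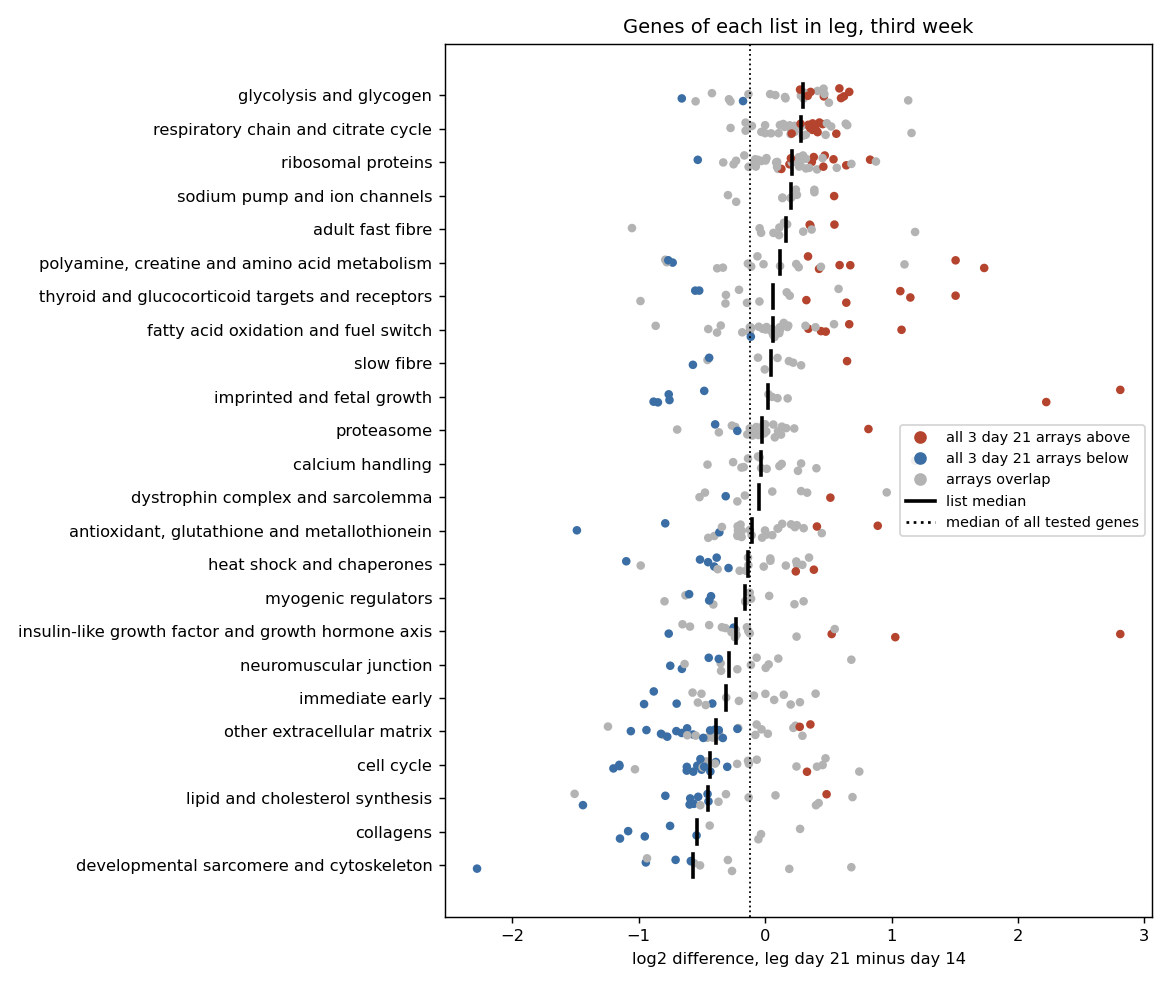
Log2 difference of each measured gene, day 21 minus day 14 in leg, by gene list, with 1 point for each gene by its brightest probe set, red where all 3 day 21 arrays lay above day 14, blue where all lay below and grey where the ages overlapped; the black bar is the list's median and the dotted line the median of all tested genes, -0.12. Glycolysis and respiratory chain lists lie right of the dotted line, and developmental sarcomere, collagen, lipid synthesis and cell cycle lists lie left of it.

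Amino acid genes gave 1 call among 21, Glul, with 6 wholly above (28.6%, against 6.09% of all genes) and 2 wholly below (9.52%, against 13.5%). Got1, an aspartate transaminase (0.67 ± 0.20, limma adjusted p = 0.12), and Bckdhb of branched chain breakdown (0.59 ± 0.22) lay above, and Bcat2, the branched chain transaminase, read 4753, 4295 and 2992 at day 21 and 661.9, 1369 and 1837 at day 14 (1.73 ± 0.58, limma adjusted p = 0.18). Of 41 ribosomal protein genes 0 were called by limma and 3 had an unadjusted p under 0.05, with 10 wholly above (24.4%, against 6.09% of all genes), 1 wholly below and a median of 0.21. Median scaling gave 24 above (58.5%, against 11.8% of all genes), 0 below and a median of 0.37. Quantile normalization gave 3 above (7.32%, against 7.20%), 4 below (9.76%, against 8.67%) and a median of 0.03, so this shift depends on the scaling. Rpl3l, the muscle-specific form of Rpl3, gave 0.83 ± 0.35 without overlap. The proteasome list (27 genes, median -0.03), the calcium handling list (15 genes, -0.03) and the dystrophin complex list (10 genes, -0.05) held 0 calls by limma, with 3, 0 and 0 members at an unadjusted p under 0.05. Of 29 antioxidant genes 0 were called and 4 had an unadjusted p under 0.05; the glutathione transferases Gstm2 (0.89 ± 0.25) and Gsta3 (-1.49 ± 0.44) lay wholly above and wholly below. The 11 sodium pump and channel genes had 0 calls, 0 members at an unadjusted p under 0.05 and a median of 0.21.

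Blood, vessel and immune markers gave no call by limma. Erythroid markers summed to 39789 to 51949 at day 21 and 35913 to 45809 at day 14 (7 of 16 measured, with 0 at an unadjusted p under 0.05), and Hbb, beta globin, gave 0.31 ± 0.79. Leukocyte markers summed to 15371 to 25325 at day 21 and 17026 to 20657 at day 14 (20 of 34 measured, 3 at an unadjusted p under 0.05). Endothelial and smooth muscle markers summed to 38176 to 47538 at day 21 and 43228 to 43838 at day 14 (12 of 20 measured, 2 at an unadjusted p under 0.05). The ages overlapped in all 3 sums.

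The third week was set against the same week in EOM, which shares no array with leg. There 40 of 6672 probe sets changed (0.6%), 30 higher (0.45%) and 10 lower (0.15%), and the count ran from 3 to 76 when 1 EOM array was left out. Of the 44 leg calls 38 had the same sign in EOM, 11 of 12 higher and 27 of 32 lower, where 59.5% of all tested probe sets had the same sign, and all 44 were smaller in size in EOM. The leg calls were chosen on leg values, so a smaller size in EOM is partly fixed by that choice. Gpc3 (-1.01), Postn (-0.88) and Glul (1.05) were called in EOM as well, each in the same direction. Myh8 differed by -0.85 in EOM (limma adjusted p = 0.248), the 2 called Myh3 sets by -0.46 and -0.42, Chrnd by -0.08 and Cebpd by 2.29 (limma adjusted p = 0.0896), none of them called there.

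**Figure D5:**
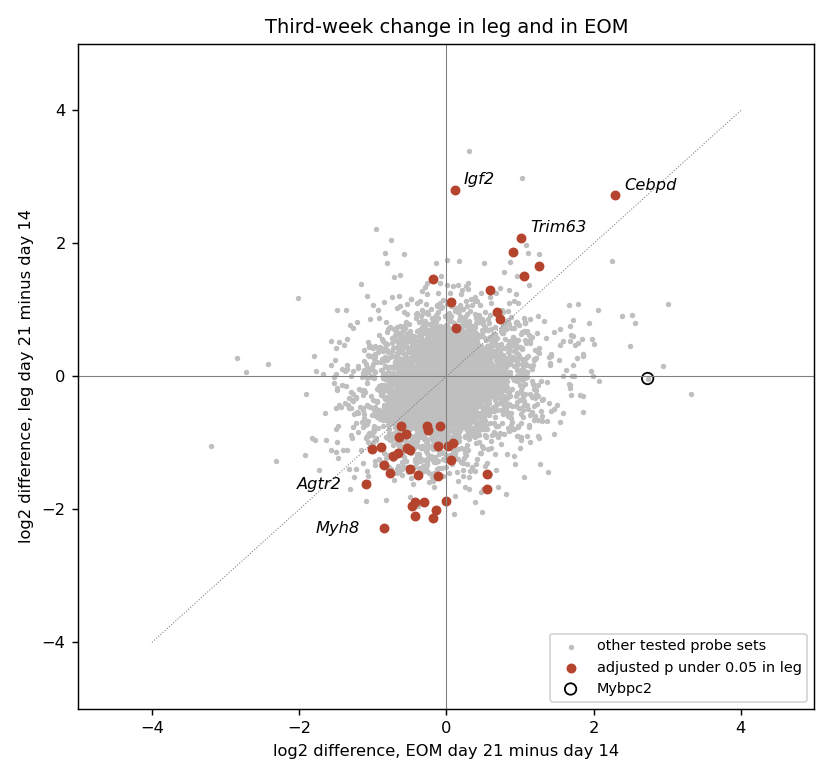
Log2 difference of day 21 minus day 14 in leg (vertical axis) against EOM (horizontal axis) for the tested probe sets, with the 44 leg calls in red, Mybpc2 circled and the line of equal change dotted; 2 probe sets lie outside the axes. The red points lie nearer to the vertical axis than to the dotted line for Myh8 and Igf2, and Mybpc2 lies at -0.03 in leg and 2.73 in EOM.

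Whether the change differed between the muscles was tested directly, and 1 of 6672 probe sets passed (0.015%). It was Mybpc2, the fast form of myosin binding protein C. In leg it read 23819, 19172 and 15928 at day 21 and 28507, 22232 and 12265 at day 14, with overlapping ages (-0.03 ± 0.33), while in EOM it rose by 2.73 ± 0.33. The leg rise came earlier, with means of 8.91, 12.53 and 14.27 log2 units at days 0, 7 and 14. Its change between days 7 and 14 was 1.74 (limma adjusted p = 0.00144). The EOM mean was 11.05 at day 14 and 13.8 at day 21. The leg change minus the EOM change was -2.77 ± 0.47 (limma adjusted p = 0.0144). All 6 leg readings lie in the top 5% of values (above 9392), where a rise may be read too small, and the call was lost with a floor of 50 and without the filter. No probe set passed without leg day 21 replicate 2, leg day 14 replicate 1 or 2, or EOM day 21 replicate 1, and up to 7 did without another array. For Myh8, Myh3, Chrnd, Igf2 and the other leg calls the difference between the muscles did not pass, so none of them is shown to change in leg alone.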

How the data were processed

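Leg and EOM RNA was measured on RG-U34A arrays, per the labels. The authors deposited a table of linear intensity values, 1 for each probe set on each array; its trimmed mean of 1501 to 1502 on every array shows that a common scaling had been applied. No source used here names the summarising software. The deposited scaling was kept. Values under 100 were raised to 100 (log2 6.64), 59 control probe sets were left out, and probe sets above the 40th percentile (320.4) on 3 or more arrays were kept.

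Means of 12 groups were fitted over 36 arrays with limma 3.58.1 in R 4.3.3 (trended prior variance, 24 residual and 5.84 prior degrees of freedom, no replicate block), with Benjamini-Hochberg adjustment within each comparison and a threshold of 0.05. The fit was also run on simulated data, whose outcome is not given here, and no result above rests on it. Probe sets were named through the GEO platform annotation, and promoters came from RefSeq (GRCr8). Lengths and cross-hybridisation of probes were not modelled. Plots used matplotlib 3.10.9 under python 3.11.15.

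Each gene is read by its brightest probe set. Named are called genes whose ages do not overlap (up to 15 each way), up to 4 called members of a list or up to 2 as values, and 21 genes followed throughout; further members were named after their values were seen, as were genes called on other probe sets. The comparison, its members and the lists were chosen with earlier results of these data known. Folds are ratios of mean log2 values, and "at least" marks folds with a day 21 array at the floor. Wholly above or below means that the 3 arrays of one age do not overlap the 3 of the other. Alternatives covered the floor, scaling, filter, arrays in the fit, prior, replicate number, bright probe sets and each left-out array.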

Additional observations from a re-analysis of the deposited data

Results flagged for a closer look

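Mybpc2 stood out because its third-week change differed between leg and EOM by a direct test. The leg change minus the EOM change was -2.77 ± 0.47 on the log2 scale (limma adjusted p = 0.0144), with -0.03 in leg and 2.73 in EOM. The call was lost with a floor of 50 and without the filter, and the leg readings lie in the brightest range of the arrays. In leg a rise of 1.74 had come between days 7 and 14 (limma adjusted p = 0.00144). No group holds 4 or more arrays, so no group was examined for a single array far from the others.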

How the results depend on the processing

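None of the 44 leg calls changed sign under any alternative (0 did). The leg count stayed between 30 and 44 under the other floors, scalings, filters and prior. It was 1 with the 6 arrays alone (910 at an unadjusted p under 0.05), 18 without any probe set in the top 5% of values, and 12 to 98 without 1 array. The EOM count was 25 with a floor of 50, 0 by limma with its 6 arrays alone (475 at an unadjusted p under 0.05), 17 without the brightest probe sets and 3 to 76 without 1 array. The difference between muscles gave 0 by limma with a floor of 50 (356 unadjusted), without a filter (417) and without the brightest probe sets (311), and 0 to 7 without 1 array. The second week gave 136 with its own arrays, 150 without the brightest sets and 162 to 279 without 1 array. The fourth week gave 16 without a filter, 0 by limma with its own arrays (485 unadjusted), 6 without the brightest sets and 4 to 20 without 1 array.

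Replicate numbers shared between ages were checked for pairing: leg arrays of the same number at days 21 and 14 had deviations correlated at 0.083, 0.069 and 0.246, not all over 0.1 but each above the -0.142 to 0.065 of other numbers, so pairing was neither given by the labels nor settled by these values. With the replicate block over all arrays the counts were 76 in leg (all 44 included), 60 in EOM, 1 for the difference, 370 in the second week and 28 in the fourth. With the block and the arrays of the comparison alone, limma gave 0 in leg (1019 unadjusted), 0 in EOM (685), 2 for the difference, 14 in the second week and 0 in the fourth (459).

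Reversals of sign touched only genes that were not called in leg. Scaling to the same median turned Chrne to 0.050, Col3a1 to 0.11, Pvalb to 0.12, Mybpc2 to 0.13 and Ucp3 to 0.14. Quantile normalization turned Chrne to 0.018, Ucp3 to 0.089, Myh2 to -0.089, Myh7 to -0.013 and Col1a1 to -0.014. Leaving out 1 array gave -0.29 to 0.091 for Chrne, -0.13 to 0.078 for Col3a1, -0.28 to 0.20 for Pvalb, -0.38 to 0.23 for Mybpc2 and -0.30 to 0.21 for Ucp3. It gave -0.34 to 0.39 for Pdk4, -0.076 to 0.27 for Myh1, -0.29 to 1.69 for Ttn and -1.29 to 2.56 for Atp2a1. Except for the arrays left out, the cause was not tested. Signal near the floor and in the brightest range limits differences there.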
